A study of Mus musculus with 8 samples.

Results

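Chromatin accessibility was compared between suprabasal transit-amplifying cells (TACs) of the growing mouse hair follicle and hair germ cells of the resting follicle. The assay was ATAC-seq, which reads out open chromatin from the places where a transposase can cut and tag the DNA. The members of the comparison were genomic sites, made by merging every overlapping pair of peaks from the 2 deposited peak lists, with the mitochondrial genome and chromosome Y left out. This gave 90753 sites out of 114956 formed in the same way from all 4 lists of the series. Of these, 36559 sites (40.3%) were in both lists, 34902 (38.5%) were in the suprabasal TAC list only and 19292 (21.3%) were in the hair germ list only.

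Hair germ cells were sorted as GFP+/CD34-/Itga6+/Itgb1+ from back skin of Lgr5-eGFP-ires-CreER mice in the second telogen, at postnatal day 55. Suprabasal TACs were sorted as GFPlow/Itga6-/CD34- from back skin of K14-H2BGFP mice in anagen, at postnatal day 30. In the former strain GFP is driven from the Lgr5 locus, and in the latter a histone-GFP fusion is driven by the keratin 14 promoter. The labels give both groups as mixed sex and list 2 samples for each, and each list was called on 1 pooled alignment of its 2 samples. No replicate error exists for any value below, so no test was run and no p-value is given. Cell type, stage, age and reporter strain differ together between the 2 groups and cannot be told apart. Of 4 Y-linked genes looked at, the hair germ list held a peak at 4 and the suprabasal TAC list at 0, as described at the end. Whether the groups differed in sex composition was not tested.

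The hair germ is the cluster of epithelial progenitors below the bulge, between the stem cell niche and the dermal papilla. At the start of a new growth phase its cells answer WNT signals, divide first and give rise to the matrix of the new follicle. Matrix cells are called transit-amplifying because they divide a limited number of times. As they move up and inward from the basal layer they become committed to the concentric layers of the inner root sheath and the hair shaft.

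Starts of inner root sheath genes were often listed in suprabasal TACs only, so the upstream DNA of 5 of them is shown first. The sequences are the 250 bases before the annotated start, from RefSeq on GRCm38.p6 (mm10), read 5′ to 3′ along the gene. Capitals mark TATAAA, the core of the TATA box, searched on both strands. Krt25 (chr11:99322952-99323201, minus strand), Krt28 (chr11:99374904-99375153, minus strand), Krt71 (chr15:101743098-101743347, minus strand) and Krt73 (chr15:101802361-101802610, minus strand) encode inner root sheath keratins. Tgm3 (chr2:130012090-130012339, plus strand) encodes a transglutaminase that crosslinks sheath and shaft proteins.
Krt25: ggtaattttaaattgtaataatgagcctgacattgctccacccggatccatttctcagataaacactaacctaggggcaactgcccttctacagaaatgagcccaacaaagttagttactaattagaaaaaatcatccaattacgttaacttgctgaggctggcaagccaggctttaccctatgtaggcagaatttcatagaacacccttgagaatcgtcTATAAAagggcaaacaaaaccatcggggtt
Krt28: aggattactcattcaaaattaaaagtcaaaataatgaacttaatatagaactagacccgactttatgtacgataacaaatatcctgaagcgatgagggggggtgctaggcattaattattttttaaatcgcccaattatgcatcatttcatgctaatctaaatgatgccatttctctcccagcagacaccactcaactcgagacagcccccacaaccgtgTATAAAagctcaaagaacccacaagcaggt
Krt71: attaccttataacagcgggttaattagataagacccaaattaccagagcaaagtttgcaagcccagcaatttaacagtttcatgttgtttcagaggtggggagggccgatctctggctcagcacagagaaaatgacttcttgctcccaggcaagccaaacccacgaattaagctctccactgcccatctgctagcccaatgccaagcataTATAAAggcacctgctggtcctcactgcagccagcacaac
Krt73: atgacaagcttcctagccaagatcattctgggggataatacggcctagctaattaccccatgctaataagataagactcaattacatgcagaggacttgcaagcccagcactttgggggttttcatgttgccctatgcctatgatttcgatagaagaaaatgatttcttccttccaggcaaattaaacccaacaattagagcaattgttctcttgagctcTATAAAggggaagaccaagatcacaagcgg
Tgm3: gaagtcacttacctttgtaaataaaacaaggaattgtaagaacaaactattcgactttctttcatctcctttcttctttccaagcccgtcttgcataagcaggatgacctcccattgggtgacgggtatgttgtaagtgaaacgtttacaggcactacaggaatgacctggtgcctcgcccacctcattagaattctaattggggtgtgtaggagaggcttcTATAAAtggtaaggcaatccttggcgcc
Each of the 5 sequences holds 1 match, which begins 30 bases before the start in Krt25, Krt28 and Krt73, 40 in Krt71 and 28 in Tgm3. The motif was present in 8 of the 12 windows of the inner root sheath list and in 11.7% of all 21044 windows of this length. The sheath windows of Gata3, Padi1, Padi3 and Tchh lacked it. TATAAA was also in 7 of 12 hair shaft windows and 7 of 17 epidermal differentiation windows, groups with no suprabasal TAC-specific start. No peak count entered the search, and a match is a description of letters only.

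The second set holds starts of 3 genes outside the sheath whose upstream regions differed widely in signal. Bmp4 (chr14:46390670-46390919, minus strand) encodes a secreted BMP ligand of the matrix and dermal papilla. Dst (chr1:34160010-34160259, plus strand) encodes dystonin, which links keratin filaments to the hemidesmosomes of basal cells. Tek (chr4:94739039-94739288, plus strand) encodes the angiopoietin receptor of endothelial cells. None of the 3 holds TATAAA, which says only that these letters are not in the 250 bases shown.
Bmp4: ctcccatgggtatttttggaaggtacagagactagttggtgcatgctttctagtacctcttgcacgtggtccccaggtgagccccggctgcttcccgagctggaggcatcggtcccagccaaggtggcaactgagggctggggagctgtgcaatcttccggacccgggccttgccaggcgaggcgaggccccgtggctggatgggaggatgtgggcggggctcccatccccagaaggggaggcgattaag
Dst: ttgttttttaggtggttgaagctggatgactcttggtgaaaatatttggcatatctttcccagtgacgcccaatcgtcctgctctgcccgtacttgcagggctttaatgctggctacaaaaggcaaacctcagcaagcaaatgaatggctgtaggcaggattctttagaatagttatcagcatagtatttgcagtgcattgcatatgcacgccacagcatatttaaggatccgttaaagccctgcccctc
Tek: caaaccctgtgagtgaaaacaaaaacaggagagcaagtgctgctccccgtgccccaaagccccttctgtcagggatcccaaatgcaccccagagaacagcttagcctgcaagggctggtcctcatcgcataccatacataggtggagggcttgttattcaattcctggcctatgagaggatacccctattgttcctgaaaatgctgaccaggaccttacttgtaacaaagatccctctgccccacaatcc

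The hair germ list was the shallower of the pair, with 11053351 fragments and 56536 peaks against 47852893 fragments and 72137 peaks for suprabasal TACs, a 4.33-fold difference in depth. The signal of a site in a list was its highest pileup, the number of fragments stacked at the summit, divided by the total fragments of the list and multiplied by 1000000 (scaled pileup). The calling level of a list was taken as the 5th percentile of its summit pileups. That level was 9 fragments in the hair germ, a scaled pileup of 0.814, and 19 fragments in suprabasal TACs, a scaled pileup of 0.397. A site with the median pileup of the suprabasal TAC list, 50 fragments, would stand at 11.5 fragments in the hair germ library if accessibility were equal, close to its calling level. A list-specific site was called within reach when its scaled pileup, multiplied by the depth of the other library, was at or above the other calling level.

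All 19292 hair germ-specific sites were within reach of the suprabasal TAC library. None could fail, because the lowest scaled pileup in the hair germ list, 0.543, was above the suprabasal TAC calling level of 0.397. At this level the reach filter could thus remove suprabasal TAC sites only. Of the 34902 suprabasal TAC-specific sites, 15830 (45.4%) were within reach of the hair germ library. Suprabasal TAC sites therefore made up 64.4% of all 54194 list-specific sites (95% Wilson interval 64.0 to 64.8) but 45.1% of the 35122 within reach (44.6 to 45.6). These intervals cover counting error only. The 19072 other suprabasal TAC-specific sites could have been missed in the hair germ at its depth.

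**Figure D1:**
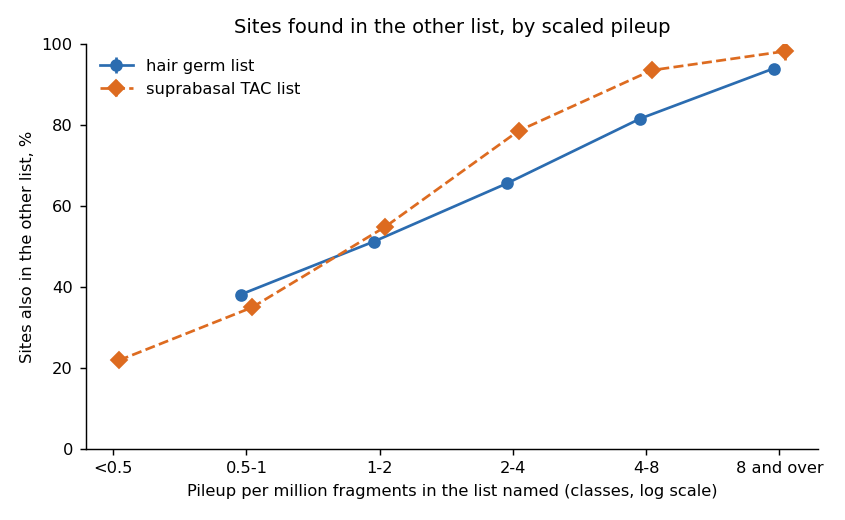
Share of the sites of each list that were also in the other list (y axis, %), in classes of scaled pileup in the list named (x axis, fragments per 1000000); bars are 95% Wilson intervals, mostly smaller than the points. The share climbs from 21.8% of suprabasal TAC sites below 0.5 to 98.2% of those at 8 or more, and from 38.1% of hair germ sites between 0.5 and 1 to 93.9% of those at 8 or more.

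List-specific sites were shorter and weaker than shared ones. Their median length was 452 bp in the suprabasal TAC list and 475 bp in the hair germ list, against 1045 bp for shared sites. A shared site spans the merged peaks of both lists, so part of this difference in length is built in. Only 1.76% of suprabasal TAC-specific and 1.38% of hair germ-specific sites overlapped a gene start window (250 bases before to 50 after a start), compared with 25.6% of shared sites. Seen from position, 91.4% of the sites at gene starts were shared, but 34.9% of those inside gene spans and 25.6% of those beyond 100 kb from any protein-coding gene. List-specific sites were therefore mostly away from gene starts.

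Of the 2 lists that the comparison did not use, the bulge list separated the list-specific sites and the basal TAC list held nearly equal shares of them. The bulge list, from stem cells of the same strain and stage as the hair germ, held a peak at 78.4% of hair germ-specific sites but at 11.6% of suprabasal TAC-specific ones. The basal TAC list, from the same anagen stage and age as the suprabasal TACs but from the Lgr5-eGFP-ires-CreER strain, held 43.1% and 45.0%. Among suprabasal TAC-specific sites within reach, 57.2% had a basal TAC peak and 13.8% a bulge peak. A total of 17842 suprabasal TAC-specific sites (51.1%) were in neither of these lists, compared with 2701 (14.0%) of the hair germ-specific sites. The bulge and basal TAC libraries were deeper than the hair germ library, at 24065469 and 30824845 fragments, but shallower than the suprabasal TAC library, at 47852893. Their calling levels were scaled pileups of 0.623 and 0.584. The median scaled pileup was 0.752 at suprabasal TAC-specific sites and 1.63 at hair germ-specific sites. Some of the 17842 sites in neither list could thus have been missed at these depths.

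At shared sites, scaled pileups were mostly higher in the hair germ. The median log2 ratio of suprabasal TAC to hair germ was -1.14, a 2.2-fold higher level in the hair germ, with quartiles at -1.65 and -0.57. Scaled pileup was at least 2-fold higher in the hair germ at 20792 sites (56.9%) and at least 2-fold higher in suprabasal TACs at 968 (2.65%). With the fold enrichment over local background that the peak caller gave, the median log2 ratio was -0.40. Median fold enrichment over all peaks was 7.14 in the hair germ and 4.79 in suprabasal TACs, so the lists differed in contrast throughout. Single sites and gene groups are therefore also described relative to the median of -1.14 (relative log2 ratio). On that scale 5141 shared sites (14.1%) were at least 2-fold higher in suprabasal TACs and 4706 (12.9%) in the hair germ. When reach was scaled for this median ratio as well as for depth, a choice made after seeing the data, 33700 suprabasal TAC-specific and 16761 hair germ-specific sites were within reach, so that 66.8% were in suprabasal TACs in place of 45.1%. Which list held more specific sites thus depended on the scaling.

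**Figure D2:**
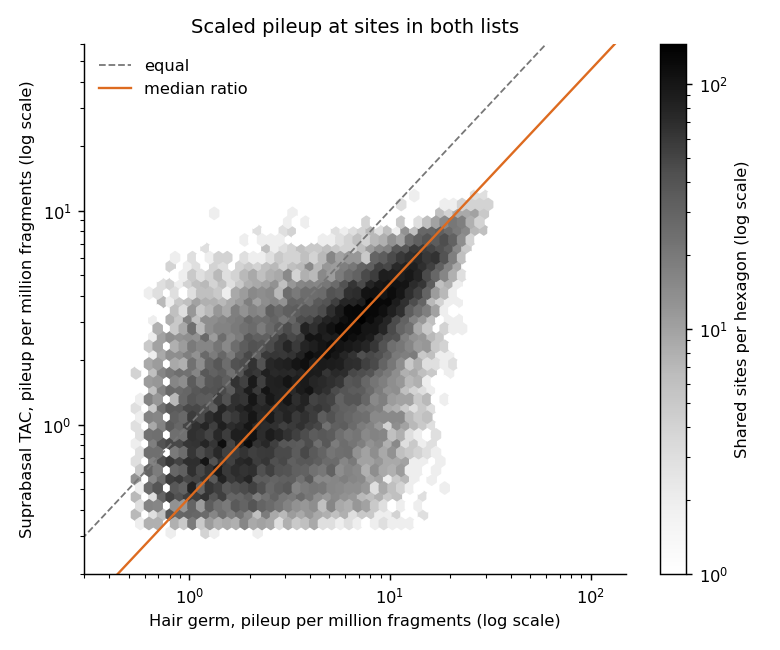
Scaled pileup in the hair germ (x axis) and in suprabasal TACs (y axis) at the 36559 shared sites, both in fragments per 1000000 on log scales; shading gives sites per hexagon. Most sites lie below the dashed line of equality and around the solid line at the median log2 ratio of -1.14.

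Gene starts varied least. The quartiles of the relative log2 ratio at the 9351 shared sites at gene starts were -0.38 and 0.28, and 4.57% and 4.21% were past 2-fold in favour of suprabasal TACs and hair germ. Beyond 100 kb from a gene the same quartiles were -0.98 and 0.76, and 20.2% and 24.4% were past 2-fold. Shared sites with a basal TAC peak and no bulge peak (2048 sites) had a median relative log2 ratio of 0.94, and those with a bulge peak and no basal TAC peak (2312 sites) one of -0.16.

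Each site was given to its nearest protein-coding gene within 100 kb. Of 16368 genes with a site, 8031 (49.1%) had more sites in the suprabasal TAC list, 2875 (17.6%) had more in the hair germ list and 5462 had equal numbers. Suprabasal TAC sites made up 66.1% of the list-specific sites assigned to a gene, and 47.1% of those within reach. These 2 shares are the background for the gene groups below. As a check of the labels, the suprabasal TAC list held a site at all 12 inner root sheath and all 16 hair shaft genes, and the hair germ list at 9 and 12 of them. Of the genes without a hair germ site, Krt26, Krt34 and Krt81 had no suprabasal TAC site within reach. Krt28, Padi3, Krt35 and Krt36 had 2, 5, 2 and 3 within reach. Both lists held a site at all 17 stem cell genes, so presence alone did not tell them apart on that side. The summed scaled pileup at the stem cell genes was 1137 in the hair germ and 329 in suprabasal TACs. The hair germ sum was also the higher one at widely expressed genes (225 and 100) and at hair shaft genes (137 and 103). At inner root sheath genes it was the lower one (102 and 135).

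Genes that build the inner root sheath gave the highest share of suprabasal TAC sites. All 12 genes of this list had more sites in suprabasal TACs, and 52 of their 58 list-specific sites (89.7%, exact 95% interval 78.8 to 96.1) were in that list only. Within reach the count was 36 of 42 (85.7%). The median relative log2 ratio at their 21 shared sites was 0.51, and 0.04 by fold enrichment. Tgm3 had 4 hair germ sites and 15 suprabasal TAC sites. Tchh, which encodes the trichohyalin that hardens the sheath, had 2 and 8. Padi1 and Padi3, which encode enzymes that convert arginines of trichohyalin to citrulline, had 3 and 8, and 0 and 5. Gata3, a transcription factor required for the sheath lineage, had 12 and 18. Krt26, Krt28 and Padi3 had no site in the hair germ list.

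The start windows of the sheath genes showed the same difference at single positions. All 12 genes had a window, and 7 held a peak in the suprabasal TAC list only, against 3.10% of all windows. Scaled pileup at these 7 was 4.95 for Tgm3 (237 fragments), 2.95 for Krt28 (141), 2.61 for Padi3 (125), 1.46 for Krt71 (70), 1.23 for Padi1 (59), 0.606 for Krt26 (29) and 0.439 for Krt72 (21). At equal accessibility the hair germ library would hold 54.7 fragments at the Tgm3 start and 32.6 at the Krt28 start, well over the calling level of 9. It would hold 6.70 at Krt26 and 4.85 at Krt72, under that level when scaled for depth alone, so those peaks could have been missed. The weakest peak of the hair germ list had 6 fragments. Fold enrichment at the Padi3 start was only 2.56, against 6.60 at Tgm3 and 7.60 at Krt28.

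Krt25, Krt73 and Gata3 had a start peak in both lists. Krt25 stood at 10 fragments in the hair germ (scaled 0.905) and 136 in suprabasal TACs (2.84), a relative log2 ratio of 2.79. Krt73 stood at 10 (0.905) and 80 (1.67), a relative log2 ratio of 2.02. Both hair germ pileups were near the calling level. The Gata3 start was close to the median of all sites, at 53 and 123 fragments and a relative log2 ratio of 0.24. Tchh and Krt27 had no start peak in either list, but a site inside Krt27 (chr11:99346668-99349117) held 13 fragments in the hair germ and 352 in suprabasal TACs, a relative log2 ratio of 3.78 (exact counting interval 2.99 to 4.71). Of the sequences shown first, those of Krt28, Krt71 and Tgm3 thus belong to starts with a peak in suprabasal TACs only, and those of Krt25 and Krt73 to starts with a weak hair germ peak. None of the 12 windows had a peak in the hair germ list only, against 1.38% of all windows.

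**Figure D3:**
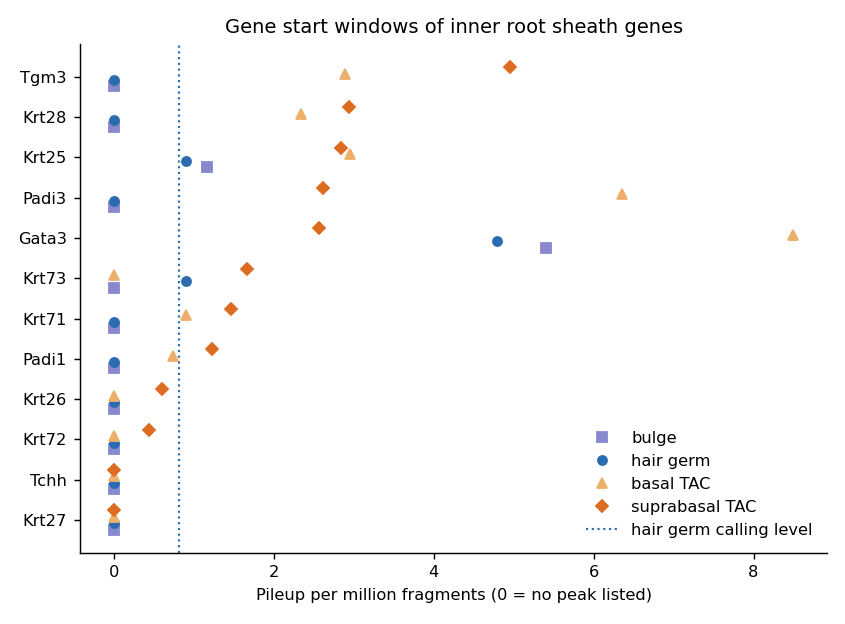
Scaled pileup (x axis, fragments per 1000000) at the start windows of the 12 inner root sheath genes in the lists of the hair germ, bulge, suprabasal TACs and basal TACs; 0 means that no peak was listed and the dotted line marks the hair germ calling level of 0.814. Hair germ points are above 0 only for Gata3, Krt25 and Krt73, and 10 of the 12 genes have a suprabasal TAC point above 0.

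Transcription factors of the hair matrix also leaned to suprabasal TACs. Of the 15 genes, 12 had more sites in suprabasal TACs, 2 had more in the hair germ and 1 had equal numbers. Their list-specific sites were in suprabasal TACs in 130 of 160 cases (81.2%, 74.3 to 87.0), and in 76 of 106 within reach (71.7%). The median relative log2 ratio at their 89 shared sites was 0.57, but -0.12 when fold enrichment replaced scaled pileup, so no direction is given for the shared sites of the group.

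Lef1, the WNT effector of the matrix, had 10 hair germ sites and 27 suprabasal TAC sites. A site inside Lef1 (chr3:131181230-131182661) held 15 fragments in the hair germ and 317 in suprabasal TACs, a relative log2 ratio of 3.42 (2.68 to 4.28), with 148 fragments in the basal TAC list. Another site inside Lef1 (chr3:131177300-131179266) was in suprabasal TACs only with 206 fragments, where 47.6 would be met in the hair germ at equal accessibility. The Lef1 start itself differed little, with 72 and 168 fragments and a relative log2 ratio of 0.25.

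Cux1, a homeodomain factor of the inner root sheath lineage, had 12 hair germ sites and 39 suprabasal TAC sites, and none of its sites was in the hair germ list only. Hoxc13, which activates hair keratin genes, had 6 and 19 sites, 13 of them in suprabasal TACs only. The strongest of these Hoxc13 sites (chr15:102832943-102834267, 86.9 kb from the gene) held 192 fragments in suprabasal TACs, 42 in basal TACs and no peak in the bulge or hair germ. Msx1 had 6 and 15 sites, Trps1 had 11 and 33, and Foxn1, the factor mutated in nude mice, had 3 and 7. At Trps1 the shared sites went the other way, with a median relative log2 ratio of -0.68.

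Barx2 and Prdm1 were the exceptions. Barx2, a homeobox gene of the follicle, had 18 hair germ sites and 10 suprabasal TAC sites, with 11 in the hair germ only. A shared site overlapping the gene (chr9:31912719-31915268) held 148 fragments in the hair germ and 49 in suprabasal TACs, a relative log2 ratio of -2.57 (-3.07 to -2.10). Prdm1, which encodes the repressor Blimp1, had 17 and 15 sites.

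Stem cell genes stood at the opposite end. Of 17 stem cell genes of the bulge or hair germ, 11 had more sites in the hair germ, 5 had more in suprabasal TACs and 1 had equal numbers. Suprabasal TAC sites were 81 of their 211 list-specific sites (38.4%, 31.8 to 45.3), and 42 of 172 within reach (24.4%). The median relative log2 ratio at 141 shared sites was -0.44, but 0.07 by fold enrichment. All 10 genes with a start window had a start peak in both lists, in 13 windows. The relative log2 ratio was below 0 in each of them, from -1.66 at Foxc1 and -1.51 at Cd34 to -0.06 at Fgf18. Cells of both groups were sorted as CD34-. By fold enrichment 7 of the 13 were below the median of shared sites. By scaled pileup, the median over all shared sites at gene starts was itself below 0, at -0.07. Shared start windows below 0 were 7 of 9 for widely expressed genes, 12 of 13 for basal layer genes and 2 of 10 for matrix factors.

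Prlr, which encodes the receptor for prolactin, had 18 hair germ sites and 2 suprabasal TAC sites. The strongest of its hair germ-specific sites (chr15:10311355-10312380, inside the gene) held 112 fragments in the hair germ, 354 in the bulge and 117 in basal TACs. Lrig1, an inhibitor of EGF receptor signalling and stem cell marker, had 19 and 8 sites. Lgr5, the R-spondin receptor whose locus drives the reporter of the hair germ mice, had 17 and 7, and Sfrp1, a secreted WNT inhibitor, had 13 and 5. One Lgr5 site (chr10:115455569-115456567, inside the gene) held 113 hair germ fragments and 300 basal TAC fragments, yet no peak was listed in suprabasal TACs at the greatest depth of the series. A shared Sfrp1 site (chr8:23469918-23470989) held 104 fragments in the hair germ and 29 in suprabasal TACs, a relative log2 ratio of -2.82 (-3.47 to -2.21).

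Sox9 and Nfatc1, which maintain the stem cell pool and its quiescence, had 13 and 8, and 22 and 18 sites. Nfib, a chromatin regulator of these cells, had 50 and 45. Tcf7l2, a WNT effector, went the other way by count with 29 and 38 sites, as did Lhx2 with 13 and 15. Within reach, Tcf7l2 had 11 suprabasal TAC-specific and 9 hair germ-specific sites, and Lhx2 had 5 and 4. The shared sites of Tcf7l2 and Lhx2 had median relative log2 ratios of -0.64 and -0.63, in favour of the hair germ. Not every site near a stem cell gene favoured the hair germ. The 6 shared sites of Sox9 had a median relative log2 ratio of 1.28, in favour of suprabasal TACs. A shared site 99.0 kb from Sox9 (chr11:112681140-112683184) held 12 fragments in the hair germ and 189 in suprabasal TACs, a relative log2 ratio of 3.00 (2.16 to 3.98).

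**Figure D4:**
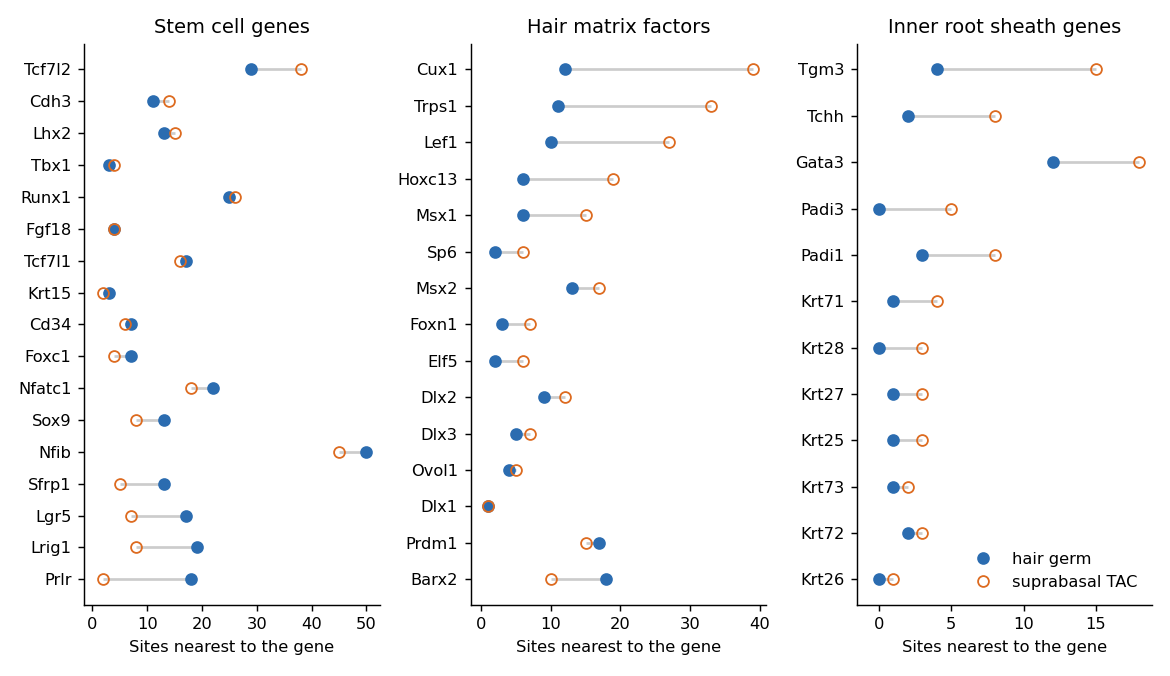
Number of sites nearest to each gene (x axis) in the hair germ list (filled) and the suprabasal TAC list (open) for 17 stem cell genes, 15 hair matrix factors and 12 inner root sheath genes, sorted by the difference within each panel. Prlr has 18 and 2 sites, Cux1 12 and 39, and Tgm3 4 and 15.

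Genes of the basal layer, which anchor cells to the basement membrane, also leaned to the hair germ. The suprabasal TACs were sorted as negative for the integrin Itga6, which marks basal cells. Of the 19 genes, 9 had more sites in the hair germ, 7 had more in suprabasal TACs and 3 had equal numbers. Suprabasal TAC sites were 75 of 151 list-specific sites (49.7%, 41.4 to 57.9), and 40 of 116 within reach (34.5%). The median relative log2 ratio at shared sites was -0.56, but 0.06 by fold enrichment. Itgb1, a sort marker of the hair germ, had 6 and 1 sites, and Itga6 itself had 15 and 13. Col4a2, a basement membrane collagen, had 11 and 4. Dst had 26 and 18. The Dst start shown above held 112 fragments in the hair germ and 34 in suprabasal TACs, a relative log2 ratio of -2.70. Another annotated Dst start (chr1:34011345-34011594) differed less, with 45 fragments in each list and a relative log2 ratio of -0.98. Trp63, the master factor of stratified epithelia, went the other way with 21 and 38 sites.

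The Krt14 start was listed in suprabasal TACs only, with 77 fragments. The K14-H2BGFP transgene carries a keratin 14 promoter, and its fragments and those of the endogenous gene cannot be told apart. The basal TAC list, from the strain without this transgene, held 61 fragments there. The hair germ list had a separate peak inside Krt14, 159 bases from that site, with 62 fragments, and 1 upstream of the gene with 130 fragments.

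WNT pathway genes leaned to suprabasal TACs nearly as strongly as the matrix factors. Of 25 genes, 19 had more sites there, 2 had more in the hair germ and 4 had equal numbers. Suprabasal TAC sites were 137 of 171 list-specific sites (80.1%, 73.3 to 85.8), and 81 of 115 within reach (70.4%). The median relative log2 ratio at shared sites was 0.50, and 0.07 by fold enrichment. Among ligands, Wnt3 had 4 and 9 sites and Wnt4 had 7 and 15. The Wnt3 start held 9 fragments in the hair germ and 66 in suprabasal TACs, a relative log2 ratio of 1.90. That hair germ pileup was at the calling level, and fold enrichment was 3.74 in the hair germ and 3.02 in suprabasal TACs. Among receptors, Fzd10 had 10 and 22 sites. Axin2, a feedback target, had 11 and 22, with none in the hair germ only. Znrf3, a ligase that removes frizzled receptors, had 12 and 26, with 17 in suprabasal TACs only and 3 in the hair germ only. Of those 17 sites 10 were within reach, and with a calling level at the 25th percentile the hair germ was ahead at Znrf3 by 1 site. Tle3, a corepressor, had 16 and 29. Dkk3, which encodes a secreted protein of the Dickkopf family, was an exception with 9 and 6 sites.

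Notch pathway genes had 75 of 99 list-specific sites in suprabasal TACs (75.8%, 66.1 to 83.8), and 48 of 72 within reach (66.7%). Of 17 genes, 12 had more sites there and 1 had more in the hair germ. The receptor Notch1 had 6 and 14 sites and Notch2 had 7 and 20, and neither had a site in the hair germ only. A shared site 35.8 kb from Notch1 (chr2:26539585-26541994) held 16 fragments in the hair germ and 373 in suprabasal TACs, a relative log2 ratio of 3.57 (2.85 to 4.39). Its basal TAC pileup was 43, a lower scaled value than in suprabasal TACs. Heyl, a Notch target, had 1 and 4 sites.

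BMP and TGF-beta genes as a group had a share near that of all genes, at 141 of 207 list-specific sites (68.1%, 61.3 to 74.4). Within reach the count was 86 of 152 (56.6%), above the 47.1% of all genes, and the members differed in both directions. Of 30 genes, 19 had more sites in suprabasal TACs and 7 had more in the hair germ. Bmp4 had 4 and 11 sites, and its 4 shared sites had a median relative log2 ratio of 2.32. The Bmp4 start, shown above, held 11 fragments in the hair germ, 35 in the bulge, 153 in basal TACs and 325 in suprabasal TACs, a relative log2 ratio of 3.91 (3.05 to 4.92). It was the highest of all shared start windows by this ratio, with fold enrichments of 2.90 and 7.45. Fst, which encodes the activin and BMP antagonist follistatin, had 11 hair germ sites and 2 suprabasal TAC sites. Tgfbr3, a TGF-beta coreceptor, had 22 and 12. The effector Smad2 had 7 and 19 sites, and Id4, a BMP target, had 8 and 5.

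Hedgehog genes gave 76 of 116 sites (65.5%, 56.1 to 74.1), and cell cycle genes 61 of 85 (71.8%, 61.0 to 81.0). The intervals of both groups included the background of 66.1%. Within reach the counts were 39 of 79 (49.4%) and 23 of 47 (48.9%), near the 47.1% of all genes. Shh, the ligand made in the lower follicle, had 2 and 9 sites, and its coreceptor gene Gas1 had 10 and 4. A shared site 89.9 kb from Gas1 (chr13:60267404-60268471) held 158 fragments in the hair germ and 32 in suprabasal TACs, a relative log2 ratio of -3.28 (-3.88 to -2.73). Ccnd2, a G1 cyclin, had 5 and 16 sites. The cell cycle genes Pcna, Ccna2, Top2a, Bub1 and Plk1 had 1 site each in both lists. Widely expressed genes, given for comparison, had 16 of 25 list-specific sites in suprabasal TACs (64.0%), and 8 of 17 within reach (47.1%).

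Hair shaft genes differed from the inner root sheath genes at their starts. Of 16 genes, 10 had more sites in suprabasal TACs and 4 had more in the hair germ, and 27 of 36 list-specific sites were in suprabasal TACs (75%, 57.8 to 87.9, an interval that includes the background). Within reach the count was 19 of 28 (67.9%), above the 47.1% of all genes. Of 9 shaft genes with a start window, 2 had a start peak in both lists and 7 had none in either. No window was specific to suprabasal TACs, against 7 of 12 in the sheath. Krt35 and Krt36, which encode hair keratins, had no site in the hair germ list and 2 and 3 in suprabasal TACs. Selenbp1 had 6 and 5 sites, but its start held 15 and 97 fragments, a relative log2 ratio of 1.72. Many keratin genes lie side by side, so the nearest gene of a site between them is uncertain.

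Epidermal differentiation genes, which belong to the cells of the skin surface, had 45 of 54 list-specific sites in suprabasal TACs (83.3%, 70.7 to 92.1), and 31 of 40 within reach (77.5%). Of 18 genes, 11 had more sites there, none had more in the hair germ and 7 had equal numbers. Dsc1, a desmosomal cadherin, had 5 and 15 sites. Cebpb, a differentiation factor, had 16 and 23. A shared site at Zfp750, another such factor, held 16 and 291 fragments, a relative log2 ratio of 3.21 (2.48 to 4.03). Flg, Sprr1b and Sprr2d, which mark the outermost layers, had no site in either list. No start window of this group was specific to either list.

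**Figure D5:**
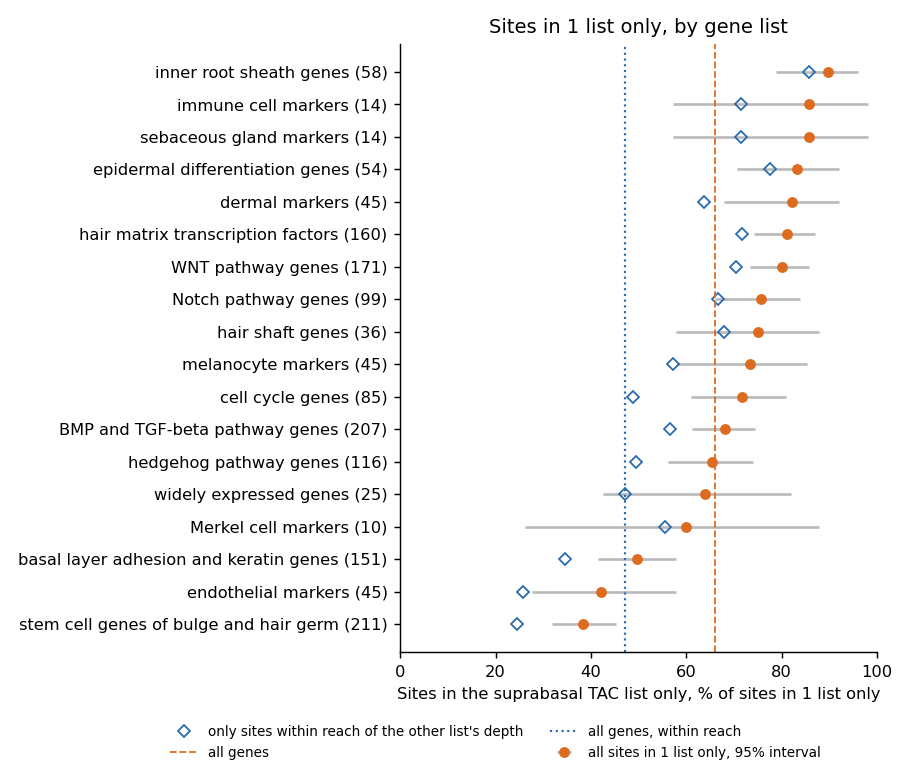
Share of list-specific sites that were in the suprabasal TAC list (x axis, %) for 18 gene lists, with the number of list-specific sites in brackets; filled points are all such sites with exact 95% intervals, open diamonds are those within reach, and vertical lines give all genes at 66.1% and 47.1%. Stem cell, endothelial and basal layer genes lie lowest, and inner root sheath genes highest, on both measures.

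Markers of other cell types in skin were counted in the same way. The 9 endothelial markers were low, with 19 of 45 list-specific sites in suprabasal TACs (42.2%, 27.7 to 57.8), and 9 of 35 within reach (25.7%). Their summed scaled pileup was 128 in the hair germ and 45.3 in suprabasal TACs. This rested on few genes: Tek had 9 sites in the hair germ and none in suprabasal TACs, and Emcn had 5 and none, while Pecam1 and Cdh5, which define endothelium, had 10 and 12, and 6 and 9. The Tek start, shown above, held 76 fragments in the hair germ, 100 in the bulge and 87 in basal TACs. Without Tek the endothelial share was 52.8%.

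Melanocyte markers had 33 of 45 list-specific sites in suprabasal TACs (73.3%), and a summed scaled pileup of 73.8 in the hair germ and 56.9 in suprabasal TACs. Of 9 genes, 5 had a site in the hair germ and 7 in suprabasal TACs. The pigment genes Dct, Mlana and Pmel had 3 and 13, 0 and 5, and 0 and 2 sites. Of their suprabasal TAC-specific sites, 8 of 10, 1 of 5 and 1 of 2 were within reach. Kit, a receptor of melanocytes, had 1 and 7, with a start peak in suprabasal TACs only. Mitf had 18 and 13, and Tyr, which encodes tyrosinase, had no site in either list. Dermal markers had 37 of 45 (82.2%), with summed scaled pileups of 41.8 and 45.7. Dcn had 1 and 10 sites and Twist2 had 1 and 10. Within reach were 5 of the 9 suprabasal TAC-specific sites of Dcn and 1 of the 10 of Twist2. Immune markers had 12 of 14 (85.7%), with summed scaled pileups of 11.3 and 16.9 and a site at 2 of 9 genes in the hair germ and 8 of 9 in suprabasal TACs. Sebaceous gland markers had 12 of 14 (85.7%), with sums of 41.6 and 38.1. Merkel cell markers had 6 of 10, with sums of 38.7 and 20.1. Within reach the counts were 16 of 28 for melanocyte (57.1%), 14 of 22 for dermal (63.6%) and 5 of 7 for immune markers (71.4%). They were 5 of 7 for sebaceous gland (71.4%) and 5 of 9 for Merkel cell markers (55.6%), against 47.1% of all genes. The part of such cells in the results above was not tested.

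Across all genes, the 10 with the largest surplus of suprabasal TAC sites were long, with a median span of 464 kb, while the median over all genes with a site was 22.7 kb. Robo1, a receptor for Slit guidance cues, led with 8 sites in the hair germ and 52 in suprabasal TACs. Of its 45 suprabasal TAC-specific sites, 21 had a basal TAC peak. Foxp1, a forkhead factor, had 36 and 75 sites, Sox5 had 16 and 46, and Tenm4 had 43 and 71. Pard3, which encodes a cell polarity protein, had 27 and 56, and Msi2, an RNA-binding protein gene, had 19 and 46. Cux1, Baz2b and Gse1 had 12 and 39, 10 and 37, and 32 and 57. Cwc22 had 1 and 31 sites, but the median fold enrichment of its 30 suprabasal TAC-specific sites was 2.17, against 3.92 for all suprabasal TAC-specific sites, and 3 of them had a basal TAC peak. These surpluses depended on depth. Counting only sites within reach, Cwc22 led with a surplus of 28, Robo1 had 23 in place of 44, Gse1 22, Foxp1 17 in place of 39, and Sox5 6 in place of 30. The other 5 genes had surpluses of 4 to 13. With the calling level at the 25th percentile, 7 of the 10 had surpluses of 2 to 8, with 5 at Robo1. At that level the hair germ was ahead at Pard3 by 2, at Tenm4 by 5 and at Msi2 by 4 sites.

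The 10 genes with the largest surplus of hair germ sites were also long, with a median span of 411 kb. Hmcn1, which encodes the matrix protein hemicentin, had 31 hair germ sites and 9 suprabasal TAC sites. Of its 24 hair germ-specific sites, 20 had a bulge peak. Stard13 had 26 and 8, Adgrv1 had 27 and 10, Zbtb16 had 26 and 9, and Prlr, described above, had 18 and 2. Adgrl3 and Cntn5, both neuronal adhesion genes, had 25 and 10, and 20 and 5. Itprid2, Samd12 and Parp8 had 29 and 14, 22 and 8, and 17 and 3. Long genes thus stood at both ends.

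Among the 1611 genes with at least 8 list-specific sites, 135 had all of them in suprabasal TACs and 21 had all in the hair germ. Cwc22 and Cux1 led the first set, followed by Myo5b with 4 and 25 sites, Cryl1 with 9 and 29, Dock1 with 4 and 24 and Prex1 with 1 and 19. Myo5b encodes an unconventional myosin, and Dock1 and Prex1 encode activators of the GTPase Rac. The second set was led by Itprid2, Parp8, Dpyd with 14 and 1, Sorcs3 with 12 and 0, Nxph1 with 11 and 0 and Cdc42ep3 with 15 and 4. The bulge list had a peak at 11 of the 12 hair germ-specific sites of Sorcs3 and at all 11 of Nxph1.

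Single sites gave the widest differences. The shared site with the highest ratio lay inside Acer1 (chr17:56974484-56975527), which encodes a ceramidase of differentiating keratinocytes. It held 8 fragments in the hair germ, 27 in the bulge, 93 in basal TACs and 417 in suprabasal TACs, a relative log2 ratio of 4.73 (3.73 to 5.95). Fold enrichment at Acer1 was 3.76 in the hair germ and 12.1 in suprabasal TACs. Sites near Anapc13, Zfp36l1, Cryl1, Usp3, Arhgap42, Ntan1 and Kif26a followed, with relative log2 ratios from 4.30 down to 3.99. All 8 had between 7 and 9 fragments in the hair germ, at or just under its calling level, so their ratios rest on few hair germ fragments.

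The lowest ratio was at a site 69.2 kb from Adgrg6 (chr10:14332136-14333380), an adhesion receptor gene. It held 302 fragments in the hair germ, 566 in the bulge, 60 in basal TACs and 25 in suprabasal TACs, a relative log2 ratio of -4.57 (-5.22 to -3.98). Another site, inside Adgrg6, was at -4.12. Sites with Gmds, Nfib, Ednra, Fhit, Fermt1 and Adam34l as their nearest genes lay between -4.29 and -4.14, with 134 to 204 fragments in the hair germ, 294 to 551 in the bulge and 15 to 22 in suprabasal TACs. The sites of Nfib, Fermt1 and Adam34l were over 100 kb from the gene, at 350 kb, 131 kb and 558 kb.

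The strongest suprabasal TAC-specific site was inside Chl1 (chr6:103649054-103649288), with 1715 fragments over 235 bp. The bulge list held 788 fragments there and the basal TAC list no peak, so the peak was listed in 1 population of each stage and strain. Another short site near Myl12b, of 231 bp, had 418 fragments in suprabasal TACs, 189 in the bulge and no basal TAC peak. The Sfi1 site had 728 fragments but a fold enrichment of 4.39. The other 5 had Apcdd1, St14, Thnsl2, Lyzl1 and C2cd4c as their nearest genes, and the Lyzl1 site was 297 kb away, beyond the limit of 100 kb used for the gene counts. All 5 had between 345 and 421 fragments in suprabasal TACs, 50 to 195 in basal TACs and no bulge peak. Apcdd1 encodes a WNT inhibitor mutated in hereditary hair loss, and St14 encodes matriptase, a protease of epidermal and hair differentiation. The Apcdd1 site, 10.0 kb from the gene, would hold 97.2 fragments in the hair germ library at equal accessibility, and the St14 site 94.0.

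The 8 strongest hair germ-specific sites had Hivep2, Acsbg1, Pkd1l1, Grik1, Mme, Bmper, Ptprg and Samd12 as their nearest genes. They held 197 to 229 fragments in the hair germ and 425 to 590 in the bulge, and 6 of the 8 also had a basal TAC peak. At equal accessibility, scaled for depth alone, each would hold at least 853 fragments in the suprabasal TAC library, where no peak was listed. That value does not allow for the median 2.2-fold higher scaled pileup of the hair germ at shared sites. Bmper encodes a secreted modulator of BMP signalling. The sites assigned to Bmper, Mme and Samd12 lay 207, 157 and 114 kb away, beyond the limit of 100 kb.

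Start windows were mostly alike. Of 21044 windows, 11599 (55.1%) had a peak in both lists, 653 (3.10%) in suprabasal TACs only and 290 (1.38%) in the hair germ only. The median number of CG dinucleotides per 300-base window was 22, 13 and 7 in these classes and 3 in windows without a peak. Among suprabasal TAC-specific windows, that of Tgm6, another transglutaminase, had 274 fragments, Bdnf had 241 and Tgm3 had 237. The hair germ-specific windows were led by Gm13286 with 161, Trim12c with 109 and Sertad4 with 102. The TATA motif was in 10.3% of suprabasal TAC-specific windows (67 of 653), 10.7% of hair germ-specific windows, 5.41% of windows with a peak in both lists and 20.4% of windows with a peak in neither. The TCF/LEF core motif CTTTGA was in 14.4%, 13.8%, 9.52% and 17.0% of the same classes, on either strand, and in 12.8% of all windows. For both motifs the list-specific windows thus lay between the windows with a peak in both lists and those with none.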

How the data were processed

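The comparison used 2 of 4 deposited peak lists, which the authors called from paired-end fragments using MACS 2.1.1.20160309, per the file headers, without a control library, keeping all duplicates of an input whose name marks it as deduplicated, with a local background of 10 kb and a q-value cutoff of 0.05. Reads were aligned to mm10 with Bowtie2 2.2.9 and handled with Picard, per the submitters' processing notes. The sources used here do not say whether cut positions were shifted for the transposase. Each list pools 2 samples.

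Per the file headers, the deposited values of a peak are its length, its pileup (a signal, the fragment coverage at the summit), a −log10 p-value and −log10 q-value, and a fold enrichment (a ratio to local background). Lists held 11053351 and 47852893 fragments, and pileups carry counting error. Intervals cover that error only.

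Peaks overlapping by 1 bp or more were merged into sites with Python 3.11.15 (pandas 2.3.3, SciPy 1.17.1), and pileups were scaled to 1000000 fragments. The steps were tested on simulated lists. Sites went to the nearest protein-coding RefSeq gene span of GRCm38.p6 within 100 kb. All 266 members of the 18 gene lists matched a gene. Start windows and sequences came from RefSeq, for 17273 genes, and genes missing from that table are in no window count. Peaks on the mitochondrial genome and chromosome Y were left out.

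Named genes were list members with the largest site differences, the 10 genes per direction with the largest difference, the 6 per direction with the most one-sided list-specific sites (8 or more), and the 8 strongest sites per direction and class. The comparison and gene lists were chosen with earlier results of these data known. Alternatives changed the q-value minimum, list size, overlap, calling level, scaling and gene assignment.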

Additional observations from a re-analysis of the deposited data

Results flagged for a closer look

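Chromosome Y was outside the comparison, and its peaks differed between the lists although the labels give both groups as mixed sex. The hair germ list held a peak at 4 of the 4 broadly expressed Y-linked genes looked at (Kdm5d, Eif2s3y, Uty and Ddx3y), and so did the bulge and basal TAC lists. The suprabasal TAC list held a peak at 0 of the 4, although it had 13 chromosome Y peaks elsewhere and the greatest depth. Other than the bulge and basal TAC lists, no control list exists for this value, and its bearing on the other sites was not tested.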

How the results depend on the processing

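When only peaks with a −log10 q-value from 10 upward were kept, list-specific sites numbered 23181 in suprabasal TACs and 12408 in the hair germ (65.1% in suprabasal TACs), and 0.765% and 62.3% of shared sites were at least 2-fold higher in suprabasal TACs and hair germ. With lists of equal size the suprabasal TAC share was 50.4%, and with a 200 bp overlap 63.9%. Scaling absence for depth left 15830 suprabasal TAC-specific sites (45.1%), or 6137 (24.3%) at a 25th percentile calling level. Scaling for depth and for the median ratio, an alternative chosen after seeing the data, gave 66.8%. Centring put the median log2 ratio at 0 and the 2-fold shares at 14.1% and 12.9%. Fold enrichment gave -0.40, 1.28% and 14.1%. Only sites at or above a list's median pileup gave 3.33% higher in suprabasal TACs. The direction between the lists in the number of specific sites thus turned with the depth scaling.

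For gene lists, 13 of 162 shares changed side of the background, in 5 lists. For dermal markers, whose interval lay off the background, this was at the 25th percentile level (20% against 25.8%). The other 12 were in the hedgehog, widely expressed, melanocyte and Merkel lists, whose intervals included the background. Beside that of dermal markers, 42 shares lay outside the interval of the unaltered share. Of 72 list medians at shared sites, 15 changed sign, in 12 lists. Of these, 10 were by fold enrichment, among them stem cell 0.0712, matrix -0.12, basal layer 0.0604, sebaceous -0.0847 and immune -0.0791. At a −log10 q-value of 10 or more the hair shaft median was -0.16, the melanocyte one 0.15 and the Merkel one -0.0318, and 2 changed at stronger sites only, hedgehog -0.0072 and melanocyte 0.53. Of 320 values for single genes, 4 changed sign, all at the 25th percentile level: Pard3 -2, Tenm4 -5, Msi2 -4 and Znrf3 -1. No paired analysis was possible because each list pools its 2 samples, and for the same reason no replicate could be left out. The depth of the hair germ library limits every absence from its list.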
